A study of Drosophila melanogaster with 2 samples.

Results

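The proteasome subunit genes of Drosophila melanogaster were taken as the protein-coding genes whose symbol starts with Prosalpha, Prosbeta, Rpn or Rpt followed by a digit. The rule found 48 of the 13945 protein-coding genes on the chromosome arms. Of these, 32 are standard subunits (7 Prosalpha, 7 Prosbeta, 6 Rpt and 12 Rpn genes), and 16 are extra copies, whose symbol carries T or R after the subunit number.

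The proteasome is the protease that breaks down ubiquitin-tagged proteins in the cytoplasm and nucleus. Its 20S core is a stack of rings, with Prosalpha subunits in the outer rings that form the gate and Prosbeta subunits in the inner rings, some of them the proteolytic ones. The regulatory particle on top holds the Rpt ATPases, which unfold the substrate, and the Rpn subunits, which form a scaffold, bind ubiquitin and remove it. In Drosophila several extra copies of subunit genes are known for expression in the testis.

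Both libraries were chromatin from whole embryos of mixed sex, 0 to 24 h old, of the strain luna-MiMIC-GFP, in which an eGFP exon placed in an intron makes luna, a zinc finger factor of the KLF family, into a GFP fusion. Chromatin sonicated to fragments of 200 to 800 bp was precipitated with an antibody against GFP (ChIP-seq), in 2 biological replicates of this 1 group. There was no other genotype, age or treatment, a possible control experiment named in the labels was not analysed here, and in whole embryos the cell types cannot be told apart. The peak lists held 1696 peaks past the irreproducible discovery rate (IDR) threshold, 21725 pooled candidates and 30000 candidates in each replicate. Candidates include weak background regions. The IDR is a measure of how well the ranks of peaks repeat. The IDR peaks are exactly the 1696 strongest pooled candidates. A single peak's place in that list thus follows its pooled rank, and its ranks in the 2 replicates can still differ. A peak's signal is the authors' score, comparable within a list only, and rank 1 is the strongest peak of a list.

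Summits past the IDR threshold stood within 500 bp of a transcription start site (TSS) at 6 of the 48 genes: Rpn5, Rpt5, Rpn6, Rpn3, Rpn13 and Prosalpha6. This is 12.5% of the members, and 10.7% of all protein-coding genes had such a summit, so the share of the whole set was near the background. All 6 were standard subunits, 18.75% of the 32, and 0 of the 16 extra copies had one. Each of the 6 genes starts head to head with another protein-coding gene, so each peak lies at the starts of a pair. At Rpn6 this holds for the inner of its 2 annotated starts, and the partner starts inside the longer Rpn6 transcript. Of all protein-coding genes with an IDR summit, 58.9% start head to head with another gene.

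The DNA between both starts is shown for Rpn5, Rpt5, Rpn3 and Prosalpha6, because the peaks sit over or beside it. The stretches are the bases before the TSS of the subunit gene, 5′ to 3′ on its own strand, from the RefSeq copy of the Release 6 genome (dm6). Capitals mark matches to TATCGATA, the DNA replication-related element (DRE) to which the factor Dref binds, and to CGATA, the core bound by the insulator protein BEAF-32. Rpn5 is shown at chr3R:5789385-5789492, Rpt5 at chr3R:23752835-23752875, Rpn3 at chr2L:19051640-19051789 and Prosalpha6 at chr2L:10221217-10221350, all on the plus strand.
Rpn5: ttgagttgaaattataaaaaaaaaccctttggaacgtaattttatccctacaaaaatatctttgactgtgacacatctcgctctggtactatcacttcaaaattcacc
Rpt5: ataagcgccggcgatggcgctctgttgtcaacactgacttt
Rpn3: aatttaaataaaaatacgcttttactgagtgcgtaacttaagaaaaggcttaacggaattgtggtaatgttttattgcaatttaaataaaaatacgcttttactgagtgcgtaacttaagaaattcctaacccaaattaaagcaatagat
Prosalpha6: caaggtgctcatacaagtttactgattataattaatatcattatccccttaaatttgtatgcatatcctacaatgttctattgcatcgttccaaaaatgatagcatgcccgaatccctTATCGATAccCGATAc

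The stretches of Rpn5, Rpt5 and Prosalpha6 (108, 41 and 134 bases) are the whole interval between the divergent starts, and that of Rpn3 is the nearest 150 bases. Of the 4 stretches, that of Prosalpha6 alone holds a DRE or a CGATA. A run of 45 bases occurs in exact copy at 2 places of the Rpn3 stretch, with the copies starting 78 bases apart. The G and C share is 32.4% in the Rpn5 stretch, 53.7% in Rpt5, 28.0% in Rpn3 and 35.1% in Prosalpha6.

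DREs are shown as short sites too, that of Prosalpha6 again among them, because this element was found at 12 of the 32 standard subunits. Sites of 24 bases, the DRE in capitals with 8 bases on each side, are given on the strand of the gene for 8 of these 12 genes, from the same genome.
Rpt5, chr3R:23752822-23752845, plus strand: gctgtcacTATCGATAagcgccgg
Rpn3, chr2L:19051585-19051608, plus strand: tatcggagTATCGATAtcgaaaag
Prosalpha6, chr2L:10221327-10221350, plus strand: gaatccctTATCGATAcccgatac
Rpn12, chr3L:16582804-16582827, plus strand: ttaaaataTATCGATAttaaagca
Rpn9, chr3R:23733421-23733444, minus strand: cggttaaaTATCGATAttctcgcg
Rpn7, chr3R:22462036-22462059, minus strand: gtataattTATCGATAattttggg
Prosbeta2, chr3L:14999933-14999956, plus strand: tgaatataTATCGATAcaatatcg
Prosbeta6, chr3L:16610447-16610470, minus strand: tgtataccTATCGATAacgtttaa
The first 3 of these genes had an IDR peak, Rpn12 and Rpn9 had pooled candidates, Rpn7 had a weak candidate in replicate 2 alone, and Prosbeta2 and Prosbeta6 had no candidate in any list. The identical 8 letters thus stood at starts with a strong peak and at starts with none.

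Rpn5, a scaffold subunit of the lid that closes the regulatory particle, had the strongest peak of the set. It lay at chr3R:5789084-5789459 with a signal of 96.1 and rank 342. In replicate 1 the candidate there had a signal of 57.0 and rank 214, and in replicate 2 a signal of 41.3 and rank 622. The summit was 221 bp upstream of the Rpn5 TSS, in an intron of Hat1, which codes for a histone acetyltransferase and starts 109 bp away on the other strand. It was thus nearer to the start of Hat1, at 112 bp, than to that of Rpn5. A further pooled candidate, 19 bp upstream of Rpn5, ranked 3007 with a signal of 35.5.

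Rpt5, an ATPase of the base, had the next peak, at chr3R:23752710-23753085 with a signal of 80.1 and rank 514. Its candidates ranked 762 in replicate 1, with a signal of 32.3, and 545 in replicate 2, with a signal of 43.6. The summit lay 22 bp downstream of the TSS in the 5′ UTR, and RanBP3, which codes for a Ran-binding protein, starts 42 bp upstream. Rpn5 and Rpt5 were the only members with peaks above the median signal of the IDR list, 64.7.

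Rpn6, a lid subunit known in yeast to clamp the regulatory particle to the core, had its peak at chr2R:14752206-14752581, with a signal of 56.9 and rank 1104. Both replicates held it at similar ranks, 1127 with a signal of 26.5 in replicate 1 and 1227 with a signal of 31.2 in replicate 2. The summit was 123 bp upstream of the inner of 2 annotated Rpn6 starts, inside an intron of the longer transcript, and 127 bp from the start of ave, which codes for a SAM domain protein of Ras signalling. It lay more than 500 bp from the outermost Rpn6 start.

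Rpn3, another lid subunit, had an intergenic peak at chr2L:19051521-19051896 with a signal of 53.2 and rank 1271. Its summit was 81 bp upstream of Rpn3 and 97 bp upstream of l(2)37Bb, within the printed stretch. The candidates ranked 1757 in replicate 1 and 1924 in replicate 2, with signals of 21.5 and 25.8, and their summits lay 7 and 12 bp from the IDR summit.

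Rpn13, a ubiquitin receptor of the regulatory particle, had its peak at chr2R:13960231-13960606 with a signal of 48.2 and rank 1563, its summit 15 bp upstream of the TSS. CtsL1, a gene for a lysosomal cathepsin, starts 271 bp upstream on the other strand. The candidate ranked 1765 with a signal of 21.5 in replicate 1 and 950 with a signal of 34.6 in replicate 2. The summit of replicate 1 lay 10 bp from the IDR summit and that of replicate 2 122 bp from it. A further pooled candidate, 216 bp upstream of Rpn13, ranked 4093.

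Prosalpha6, an outer-ring subunit of the core, was close to the end of the IDR list, at rank 1664 with a signal of 46.8, where the lowest signal in the list was 46.4. The peak at chr2L:10221165-10221540 had its summit 2 bp downstream of the TSS and 14 bp from the centre of the DRE printed above. Npc1a, which codes for a sterol transporter, starts 135 bp upstream. The replicates differed here: the candidate ranked 4990 in replicate 1, with a signal of 14.2, and 1215 in replicate 2, with a signal of 31.3.

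**Figure D1:**
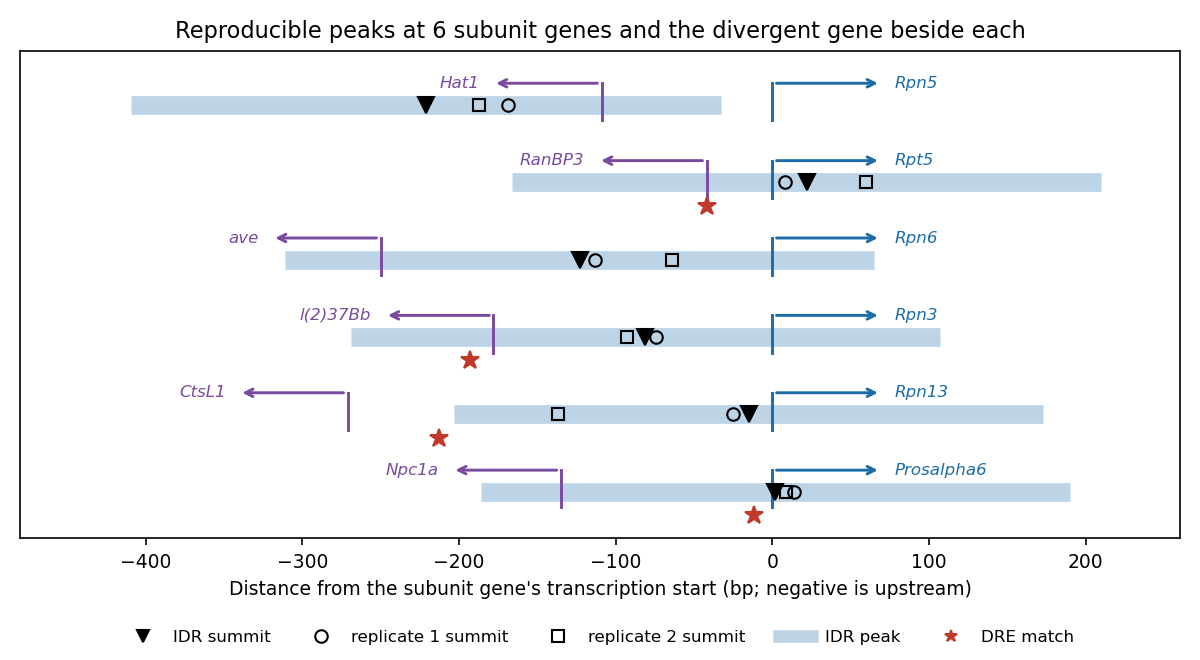
Position of the IDR peak (bar, 376 bp wide at each gene), its summit (triangle), the best summit of replicate 1 (circle) and replicate 2 (square) and any DRE match (star) around 6 subunit genes, in bp from the TSS of the subunit gene (blue arrow), with the head-to-head partner in purple. The IDR summit lies between the 2 starts at Rpn6, Rpn3 and Rpn13, inside the partner at Rpn5, and just inside the subunit gene at Rpt5 and Prosalpha6. At Rpn6 the TSS shown is the inner one.

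Below the IDR list, candidates were found at most standard subunits. In the pooled list, 28 of the 48 genes had a summit within 500 bp of a TSS (58.3%), and 45.9% of all protein-coding genes had one. The standard subunits accounted for 25 of these 28, 78.1% of the 32, and the extra copies for 3, 18.75% of the 16. The strongest 25% of the pooled list, ranks 1 to 5431, reached 17 of the 32 standard subunits (53.1%) and 1 of the 16 extra copies, and 25.2% of all protein-coding genes. A summit in this range but not in the IDR list was found at 11 standard subunits (34.4%) and at 14.5% of all genes. Among genes with a pooled summit, the median best rank was 3487 for the standard subunits, 8935 for the extra copies and 4646.5 for all genes.

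The 5 best-ranked members without an IDR summit were Prosbeta1, Rpt1, Prosalpha3, Prosalpha7 and Rpt2. Prosbeta1, one of the proteolytic subunits, stood just outside the IDR list at pooled rank 1842 with a signal of 44.5, its summit 81 bp upstream. In replicate 1 it ranked 12048 with a signal of 10.6, and in replicate 2 it ranked 1052 with a signal of 33.2. Rpt1, a base ATPase, showed the same contrast, with pooled rank 1938 and signal 43.5, rank 14060 and signal 10.03 in replicate 1, and rank 978 and signal 34.1 in replicate 2. Both would thus rank among the strongest 1696 by replicate 2 and far below them by replicate 1.

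Prosalpha3 and Prosalpha7, outer-ring subunits, were even between replicates. Prosalpha3 had pooled rank 2225 with a signal of 40.6, rank 2458 with a signal of 18.5 in replicate 1 and rank 3352 with a signal of 20.2 in replicate 2. Prosalpha7 had pooled rank 2571 with a signal of 38.1, rank 2112 with a signal of 19.7 in replicate 1 and rank 2725 with a signal of 22.1 in replicate 2. Rpt2, a base ATPase, had pooled rank 3207 with a signal of 34.5, rank 8917 with a signal of 11.7 in replicate 1 and rank 3852 with a signal of 19.1 in replicate 2.

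**Figure D2:**
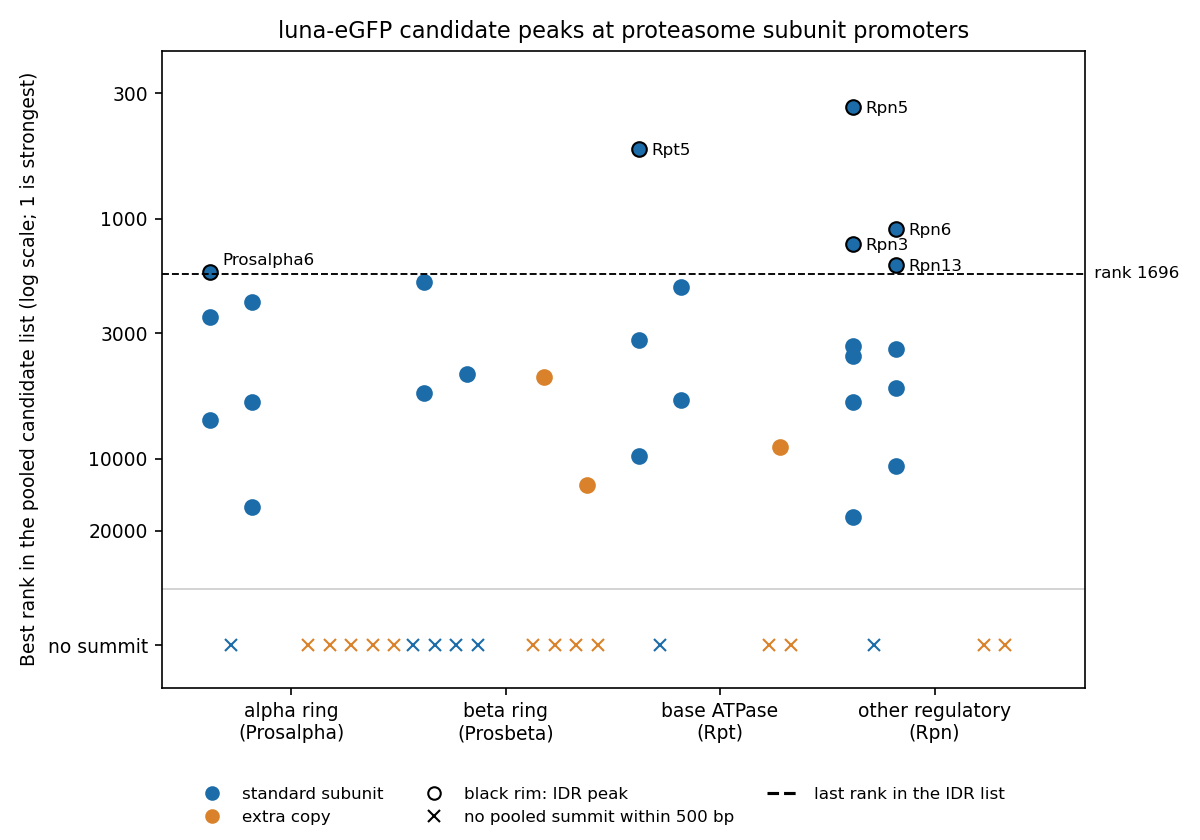
Best rank of each of the 48 genes in the pooled list on a log scale, rank 1 at the top, by class, with standard subunits left and extra copies right in each class. Crosses mark genes with no pooled summit within 500 bp, and the dashed line marks rank 1696, the end of the IDR list. The 6 genes above the line include 4 Rpn genes, 1 Rpt gene and 1 Prosalpha gene, and the 3 extra copies with a summit rank between 4558 and 12867.

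By class of standard subunits, the share with a summit in the pooled list was highest for the Rpn genes and lowest for the Prosbeta genes. Replicate 1 did not give this order, with 83.3% for both the Rpn and the Rpt genes and 57.1% for both the Prosalpha and the Prosbeta genes. Of the 12 standard Rpn genes, 11 had a pooled summit and 4 an IDR summit. The pooled ranks of the others were 3396 for Rpn1 and 3728 for Rpn2, both scaffold subunits, 3487 for Rpn11, the deubiquitinase of the lid, and 5088 for Rpn12. Rpn10, a ubiquitin receptor, ranked 5810, Rpn9 10782 and Rpn8, the partner of Rpn11, 17504. Rpn7 had no pooled summit and 1 candidate in replicate 2, at rank 26207. Rpn1 ranked 1564 in replicate 1 and 1806 in replicate 2, better than Rpn3 in both, while its summits in the 2 replicates lay on opposite sides of the TSS, 152 bp upstream in replicate 1 and 42 bp downstream in replicate 2. Its pooled signal was 33.5.

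Of the 6 standard Rpt genes, 5 had a pooled summit, with Rpt4 at rank 5696 and Rpt6 at 9749 beside those above. Rpt3 had a candidate in replicate 1 alone, at rank 7474. Of the 7 standard Prosalpha genes, 6 had a pooled summit, with Prosalpha2 at rank 5787, Prosalpha4 at 6901 and Prosalpha5 at 15877 beside those above.

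Of the 7 standard Prosbeta genes, 3 had a pooled summit and 0 an IDR summit, with Prosbeta3 at rank 4441 and Prosbeta5, a proteolytic subunit, at 5352 beside Prosbeta1. Prosbeta7 had a candidate in replicate 1 alone, at rank 21010. The third proteolytic subunit, Prosbeta2, and also Prosbeta4 and Prosbeta6, had no candidate in any of the lists. The nearest pooled summit to Prosbeta2 was 3956 bp downstream of its TSS, and the nearest to Prosbeta4 was 3325 bp downstream. Prosbeta6 had one 1096 bp downstream that ranked 1528 with a signal of 48.7, thus an IDR peak outside the 500 bp window. Prosbeta2, Prosbeta4 and Prosbeta6 are 1369, 954 and 1019 bp long, so each of these summits lay beyond the far end of the gene. Classes of 6 to 12 genes are small, and the differences between them were not tested.

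Prosalpha1 was the remaining standard subunit without a candidate, and its value is uncertain. It lies beside its extra copy Prosalpha1R, and both sit in blocks of 3112 bp of identical sequence, 3110 bp apart on the same strand. Each block covers its gene and 1172 bp or 1189 bp before the TSS. Reads from within the blocks cannot be assigned to 1 copy, and no source used here says how the authors' alignment treated them. The nearest pooled summits lay 3221 bp from Prosalpha1 and 2968 bp from Prosalpha1R.

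Of the 16 extra copies, 3 had a pooled summit: Prosbeta2R2 at rank 4558, Rpt6R at 8935 and Prosbeta2R1 at 12867. At Prosbeta2R2 the replicates differed widely, with rank 27386 in replicate 1 and 3698 in replicate 2. Prosalpha4T2 and Rpt3R had a candidate in replicate 2 alone, at ranks 27704 and 26254. The other 11, namely Prosalpha1R, Prosalpha3T, Prosalpha4T1, Prosalpha6T, Prosbeta4R1, Prosbeta4R2, Prosbeta5R1, Prosbeta5R2, Rpt4R, Rpn12R and Rpn13R, had no candidate in any list. That is 68.75% of the extra copies. The same held for 4 of the 32 standard subunits (12.5%) and for 37.3% of all protein-coding genes.

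Each replicate list gave the same order of the 2 groups. In replicate 1, 25 of the 48 genes had a summit (52.1%), 23 of them standard subunits and 2 extra copies, and 47.1% of all protein-coding genes had one. In replicate 2, 31 of the 48 did (64.6%), 26 of them standard subunits and 5 extra copies, and 51.9% of all genes. A summit in both replicates was found at 21 of the 32 standard subunits (65.6%), at 2 of the 16 extra copies and at 36.7% of all genes. Where both replicates had one, the rank was better in replicate 2 at 12 of 23 members (52.2%) and at 51.8% of all genes.

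**Figure D3:**
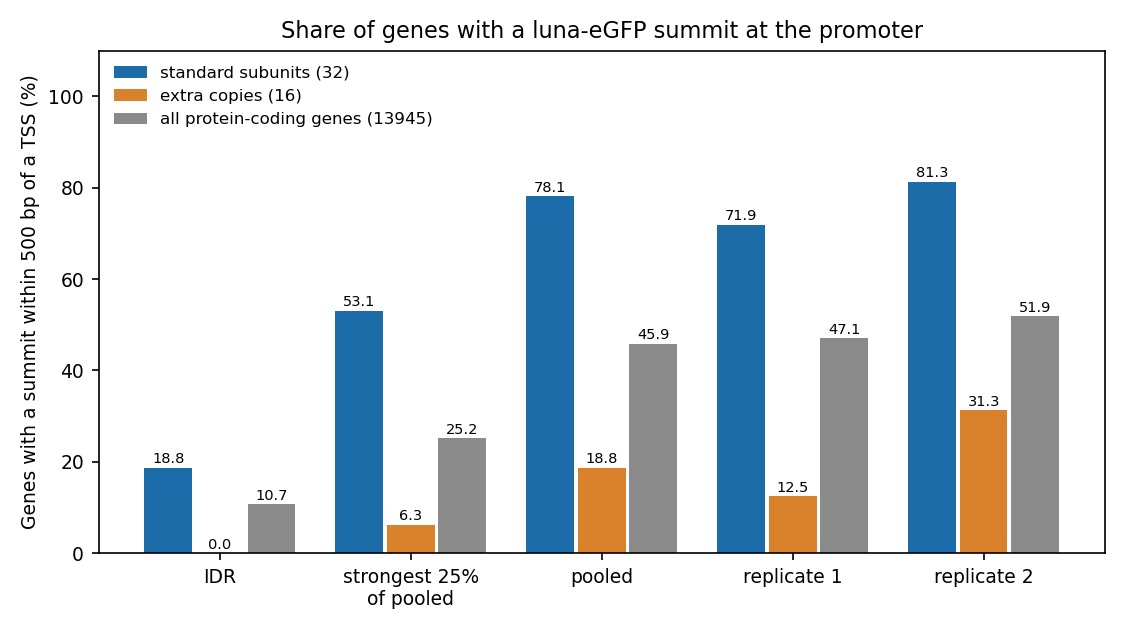
Percent of genes with a summit within 500 bp of a TSS in the IDR list, the strongest 25% of the pooled list, the whole pooled list and each replicate list, for 32 standard subunits, 16 extra copies and 13945 protein-coding genes. In each list the bar of the standard subunits is the highest and that of the extra copies the lowest, from 18.75%, 0% and 10.7% in the IDR list to 81.25%, 31.25% and 51.9% in replicate 2.

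**Figure D4:**
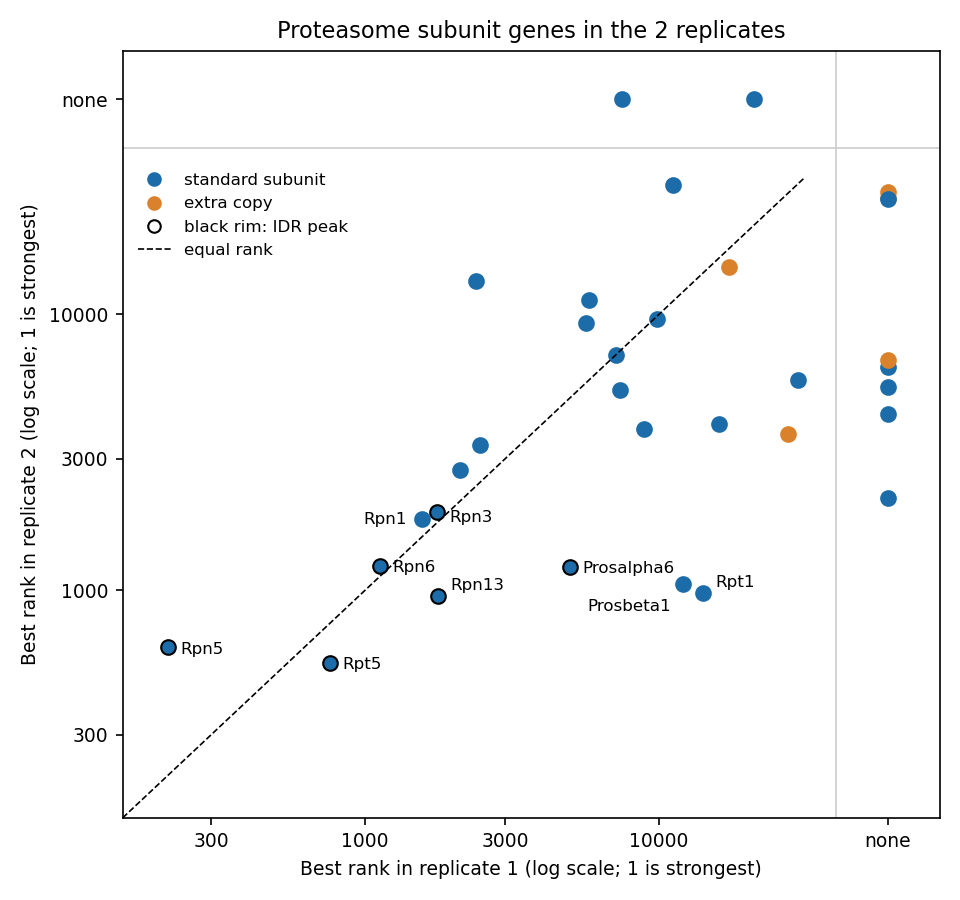
Best rank of each subunit gene in replicate 1 and replicate 2, both on log scales with stronger candidates to the left and bottom, and genes without a candidate in a replicate at the outer edge. Rpt5, Rpn6 and Rpn3 lie near the dashed line of equal rank and Rpn5 above it, ranked better in replicate 1, while Prosalpha6, Prosbeta1 and Rpt1 are ranked much better in replicate 2.

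Divergent starts were frequent among the standard subunits. A TSS of another gene on the opposite strand lay within 500 bp upstream of any of the gene's own TSSs at 21 of the 32 (65.6%). It did so at 3 of the 16 extra copies (18.75%) and at 29.7% of all protein-coding genes. All 6 IDR peaks fell in this group, that of Rpn6 through its inner start. Among all protein-coding genes with an IDR summit, 58.9% were head to head. Thus 28.6% of the 21 head-to-head standard subunits had one, against 21.3% of all head-to-head genes. None of the 11 standard subunits without such a partner had an IDR summit, where the share over all genes without a partner was 6.26%. Pooled summits did not follow the same split, since they were found at 16 of the 21 standard subunits with a partner (76.2%) and 9 of the 11 without (81.8%). Over all genes these shares were 68.2% with a partner and 36.5% without. A peak between 2 starts cannot be assigned to 1 of the 2 genes from these lists.

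Most candidate summits stood upstream of the TSS. The best pooled summit was upstream at 19 of the 25 standard subunits with one (76.0%), at a median position 60 bp upstream, and within 100 bp of the TSS at 14 (56.0%). Over all protein-coding genes with one, 69.1% were upstream, the median position was 68 bp upstream, and 41.4% were within 100 bp. The 6 IDR summits had a median position 48 bp upstream, against 109 bp for all genes with an IDR summit. Taken from the best summits of replicate 2 alone (without replicate 1), the median position of the 6 genes was -78.5 bp, where negative is upstream, and measured from the outermost TSS the IDR summits gave -6.5 bp.

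The DRE and CGATA were the motifs with the widest gap between standard subunits and all genes. Among 11 motifs matched from 250 bp before to 50 bp after the outermost TSS, the DRE, TATCGATA, was found at 12 of the 32 standard subunits (37.5%), at 0 of the 16 extra copies and at 9.36% of all protein-coding genes. The 12 were Prosalpha3, Prosalpha5, Prosalpha6, Prosbeta1, Prosbeta2, Prosbeta6, Rpn3, Rpn7, Rpn9, Rpn12, Rpn13 and Rpt5. At least 2 matches to CGATA, which a DRE provides by itself since it reads CGATA on both strands, were found at 21 of the 32 (65.6%), at 1 extra copy, Prosbeta2R2, and at 24.3% of all genes. The promoters were also poor in G and C, with a median of 33.5% for standard subunits, 32.7% for extra copies and 38.0% for all genes.

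The DRE was present at 4 of the 6 genes with an IDR peak, Prosalpha6, Rpt5, Rpn3 and Rpn13, and not found in the window of Rpn5 or Rpn6. Of all 1493 protein-coding genes with an IDR summit, 161 had a DRE and a head-to-head partner and 75 a DRE without a partner. At Rpn6 the window around the outermost TSS does not reach the peak summit, so the letters there were not searched. At Rpn5 the window holds the summit, 221 bp upstream, but not the far end of the peak, which was not searched either. The centre of the DRE lay 14 bp from the IDR summit at Prosalpha6, 64 bp at Rpt5, 112 bp at Rpn3 and 198 bp at Rpn13. At Prosalpha6 it stood 12 bp upstream of the subunit gene. At Rpt5 it stood 42 bp upstream, at the start of RanBP3 itself, and at Rpn3 and Rpn13 it stood 193 and 213 bp upstream, nearer to the start of the partner gene than to that of the subunit gene. Of the 12 genes with a DRE, 9 had a pooled summit, and so did 16 of the 20 without. Over all genes, 18.1% of those with a DRE and 9.95% of those without had an IDR summit, and 69.5% and 43.4% a pooled summit.

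Arrangement and DRE could be set side by side. Of 8 standard subunits with both a DRE and a head-to-head partner, 4 had an IDR summit, of 13 with a partner alone 2, of 4 with a DRE alone 0 and of 7 with neither 0. Over all protein-coding genes the shares in these 4 classes were 23.1%, 20.9%, 12.3% and 5.86%. A partner was counted at any TSS of a gene, but the DRE around the outermost TSS alone. Rpn6 thus stands among those with a partner alone, though its peak was not searched for a DRE. The counts of subunits are too small to set these classes apart.

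Other motifs were rarer. GGTCACACT, the core promoter element bound by M1BP, was found at 5 of the 32 standard subunits (15.6%) and 6.05% of all genes. The 5 were Prosalpha2, Prosalpha4, Prosbeta3, Rpn1 and Rpn7. An IDR summit was found at 0 of them and at 13.5% of all genes with this motif, and 5 genes are too few to tell these apart. TGACNNNGC, the core recognised by Cnc with small Maf proteins, the Drosophila relatives of the human regulators of proteasome genes under stress, was found at 5 (Prosalpha2, Prosbeta3, Rpn1, Rpn7 and Rpt6), at 1 extra copy, Prosbeta4R2, and at 8.63% of all genes. At Prosbeta3 and Rpn1 this match overlapped the M1BP match. The core promoter motif Ohler7 was found at 5 standard subunits and 9.29% of all genes, and Ohler6 at 2 standard subunits, 2 extra copies and 2.23%.

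KLF proteins bind a core of CACACCC or CACGCCC, and either was found at Rpn6 and Rpt4 (6.25% of the standard subunits), at 0 extra copies and at 3.36% of all genes. The match at Rpn6 lay 611 bp from its IDR summit, and that at Rpt4 116 bp from a pooled summit of rank 5696. None of the other 5 genes with an IDR peak had these letters in the window, which says nothing of the factor beyond this window. Over all genes, 8.53% of those with these letters and 10.8% of those without had an IDR summit. For pooled summits the shares were 41.8% and 46.0%, and these differences were not tested. GGGCGG was found at 2 standard subunits and 5.97% of all genes, and GAGAGAG at 0 standard subunits, 2 extra copies and 5.87%. TATAAA was found at 13 standard subunits, 5 extra copies and 45.8%, and CAGGTAG, the Zelda motif, at 1 standard subunit, 1 extra copy and 1.64%.

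**Figure D5:**
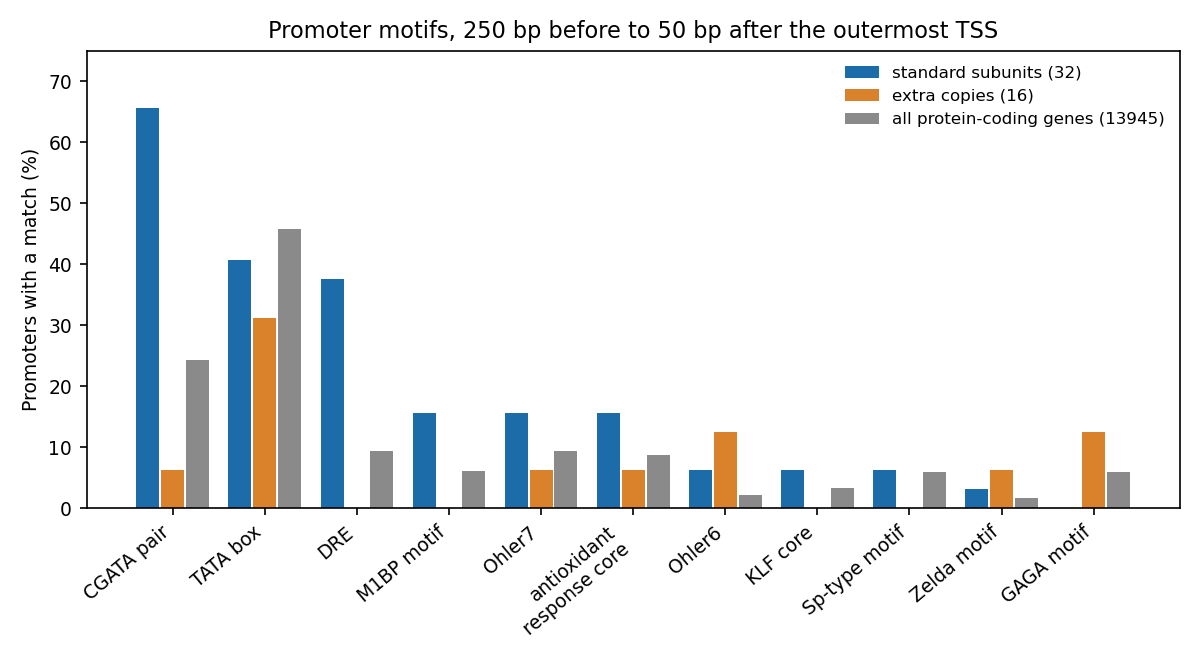
Percent of promoters with each of 11 motifs, matched on both strands from 250 bp before to 50 bp after the outermost TSS, for 32 standard subunits, 16 extra copies and 13945 protein-coding genes. The CGATA pair stands at 65.6%, 6.25% and 24.3% and the DRE at 37.5%, 0% and 9.36%, and a gene with a DRE is counted in both.

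Other genes of the ubiquitin system had peaks as well. Of 72 symbols in 7 lists of pathway genes, 68 were found in the annotation, and 12 of them had an IDR summit (17.6%) and 50 a pooled summit (73.5%), where the shares over all protein-coding genes were 10.7% and 45.9%. Of 6 regulators of the proteasome stress response, 3 had an IDR summit: Keap1, the repressor of Cnc, at rank 1075, cnc itself at rank 1123, 357 bp downstream of a TSS, and rngo at rank 1674. The ubiquitin precursor genes RpS27A and Ubi-p63E ranked 741 and 851, and 2 of 5 genes for ubiquitin and its activating enzyme had an IDR summit. By its symbol RpS27A is also counted among the small-subunit ribosomal protein genes below.

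Among genes that extract or deliver substrates, 3 of 12 had an IDR summit. Hrd3, a partner of the ubiquitin ligase of the endoplasmic reticulum, ranked 314 with a signal of 100.2, a rank near the 342 of Rpn5. Plap ranked 1320. The proteasome shuttle factor rngo is in this list as well. Of 13 ubiquitin-conjugating enzymes, 3 had one, among them eff at rank 1062 and Ubc6 at 1235. Of 16 core genes of cullin-RING ligases 1 had one, slmb, an F-box protein, at rank 1537, and of 8 COP9 signalosome genes 1, CSN3, at rank 1160. Of 10 activators, assembly factors and bound enzymes of the proteasome 0 had an IDR summit and 7 a pooled summit.

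The standard proteasome subunits, with IDR summits at 6 of 32 genes (18.75%), stood below the ribosomal protein genes, which code for another large complex of all cells and had them at 20 of 38 small-subunit genes (52.6%) and 37 of 54 large-subunit genes (68.5%). Pooled summits were found at 78.1% of the standard proteasome subunits and at 86.8% and 92.6% of the small- and large-subunit ribosomal genes. The ribosomal sets hold every gene whose symbol starts with RpS, RpL or RpLP and a digit, with no copies left out. With its extra copies kept, the proteasome set had IDR summits at 12.5% and pooled summits at 58.3% of 48 genes. These differences were not tested.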

How the data were processed

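Chromatin from 2 replicates of 1 group was measured, and the starting point was 4 peak lists in dm6 coordinates, 1 per replicate, 1 pooled and 1 past the irreproducible discovery rate (IDR) threshold. The README texts deposited with the samples say that candidates were derived from alignments with a control file, and IDR peaks from the candidates of each replicate and of the pool. For the aligner, the caller, their versions and the IDR threshold the entry is: not given in the sources used here. Each peak carries a signal value that the authors deposited, a score with no stated scale, which was used as given to rank peaks within a list, and a summit offset. Lists in the older build dm3 were not used. No read counts were used, so depth is unknown and no interval could be given.

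Genes and TSSs came from Ensembl release 115 (BDGP6.54) and sequence from the RefSeq copy of Release 6, which shares the coordinates of dm6. A gene was counted when a summit lay within 500 bp of any of its TSSs, and its best rank was that of the strongest such summit. For motifs, letters were matched on both strands from 250 bp before to 50 bp after the outermost TSS. The tools were Python 3.11.15, pandas 2.3.3, numpy 2.4.6 and matplotlib 3.10.9, and the counting was tested on simulated summits and motifs. No significance test was run.

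Every member with an IDR summit was named with all values, the 5 best-ranked members with candidates alone likewise, the other members by rank or as having none, and up to 4 genes with the strongest IDR peak in each pathway list. A gene that this rule would name is not reported here. The members and lists were chosen with earlier results of these data known. The alternatives for summits were other windows, any overlap of the peak interval, the stronger part of the IDR list and the outermost TSS alone. Each replicate was also left out by taking the same number of strongest candidates of the other one. For the DRE, a longer and a shorter motif window were used.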

Additional observations from a re-analysis of the deposited data

How the results depend on the processing

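Of 39 values recomputed under another setting, 34 stayed close to the value given above (for counts and shares, within 1.5 times of it). These values are not independent. The IDR counts of the standard subunits repeat those of all members, and those of the extra copies stayed at 0. With only the 848 strongest IDR peaks, 2 subunit genes had a summit (Rpn5 and Rpt5), both among the 32 standard subunits. The share over all protein-coding genes was then 5.79%, and that of the standard subunits was near it. Windows of 250 and 1000 bp and any overlap of the peak interval each gave the same 6 genes. The shares over all protein-coding genes were then 8.77%, 12.5% and 11.5%. The outermost TSS alone gave 5 genes, without Rpn6, where the share over all genes was 9.5%. With 1 replicate left out, the count was 7 without replicate 1, where the share over all genes was 10.5%. It was 4 without replicate 2, where that share was 10.4%. Without replicate 1, Prosbeta1 and Rpt1 entered and Rpn3 dropped out. Without replicate 2, Rpn5, Rpn6 and Rpt5 were kept and Rpn1 entered. The median summit position of the 6 genes was -48.0 bp, between -78.5 and -49.5 bp with a replicate left out, and -6.5 bp when measured from the outermost TSS, with Rpn6 kept in; the cause was not tested. In each of these settings 0 extra copies had an IDR summit. The DRE was found at 14 members from 500 bases before to 50 after the TSS, and at 11.4% of all genes. From 100 bases before to 50 after, it was found at 8 members and at 7.63% of all genes. No paired analysis was possible because there is 1 group only. Depth is unknown, so a missing candidate cannot be told from weak coverage.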
